A study of Mus musculus with 16 samples.

Results

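The comparison described here sets normal splenic B cells of p53(246/-) mice, which carry 1 mutant p53 allele named 246 and no other p53 allele, against normal splenic B cells of p53(-/-) mice, which carry none. It rests on the 4 arrays that the sample titles name as normal, 2 of each genotype, out of 16 arrays in the series. All 14860 genes that the array reports under a single symbol were compared. The mice of both genotypes had a hybrid C57BL6/129 background. B cells were obtained from spleen by magnetic depletion of other cells. Total RNA was amplified with a whole-transcript kit and hybridised to 1 array a sample. No normal sample carries an intact p53 allele, so the contrast is the mutant allele against its absence and not against wild type. The labels of the normal samples name no Myc construct, in contrast to the other 12 arrays, which are Myc-induced B lymphomas of the same 2 genotypes (6 each) and serve here only to estimate the spread and for a side-by-side view. The labels state neither the amino acid change of allele 246, nor the ages of the mice, nor whether each array stands for a separate mouse. The p-values, standard errors and intervals below rest on the spread within the 4 groups over all 16 arrays, 12 of them lymphomas. That spread may be technical in part. In p53(246/-) normal cells it includes a difference between mice, since the Y-linked gene Eif2s3y read 9.52 on the first array and 3.51 on the second.

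The transcription factor p53 holds damaged cells in arrest or sends them into apoptosis by switching on genes such as Cdkn1a, Mdm2 and Bbc3. Missense mutants of its DNA-binding domain usually lose this activity, and some are reported to act on other genes. Setting a mutant allele against a null allele asks what the mutant protein adds in a cell that has no normal p53. Resting splenic B cells hold 2 main populations, follicular cells and marginal zone cells, and are known for dying readily after DNA damage through p53.

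No gene passed the test between the genotypes. With limma and Benjamini-Hochberg adjustment over 14860 genes, 0% had an adjusted p under 0.05, and the smallest adjusted p was 0.654, for Plxdc2. Each of the other genes named below had an adjusted limma p of 0.999, so their differences are given with standard errors (SE) and, for some, with 95% intervals that are not corrected for the number of genes. At an unadjusted limma p under 0.05 there were 505 genes (3.4%), of which 180 (1.21%) were higher and 325 (2.19%) lower in p53(246/-) cells. Among the 180, the first p53(-/-) array was the lowest of the 4 arrays in 151 genes, and among the 325 it was the highest in 295. The median 95% interval of a difference reached 0.495 on the log2 scale to either side, a factor of 1.41. A permutation of the 4 arrays alone could not give an exact two-sided p below 0.333.

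Values below are log2 intensities, always in the order of the first and the second array of a genotype. A value of about 5.31 or less is near background: this low-value cutoff is the 95th percentile, over 800 olfactory and vomeronasal receptor genes, of their means on the 4 arrays, and 6800 genes had means above it. A difference whose lower group lies under the cutoff may understate the true one. The genes ranked below by p-value or by size were taken only from those with a mean above the cutoff in at least 1 genotype, the higher of the 2. Leaving out 1 array moved the difference by more than 1.5 times, or turned its sign, in 71 of the 93 genes named here. This happened in 50 of them without the first p53(-/-) array, in 42 without the second, in 28 without the first p53(246/-) array and in 32 without the second.

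The first p53(-/-) array differed from the other 3 arrays in its whole distribution. Its standard deviation over genes was 1.57, against 1.69 to 1.75 on the others, and the median of the receptor genes was 4.21 on it and 3.90 to 4.00 on the others. Its correlation over genes with the other arrays was 0.957 to 0.959, against 0.986 to 0.988 among those 3. The median distance between the 2 p53(-/-) arrays was 0.298 over all genes, wider than the median difference between the genotypes of 0.147, while that between the 2 p53(246/-) arrays was 0.128. The Y-linked gene Eif2s3y read 9.75 and 9.91 in p53(-/-) cells and 9.52 and 3.51 in p53(246/-) cells, so the second p53(246/-) array comes from a female and the others from males.

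**Figure D1:**
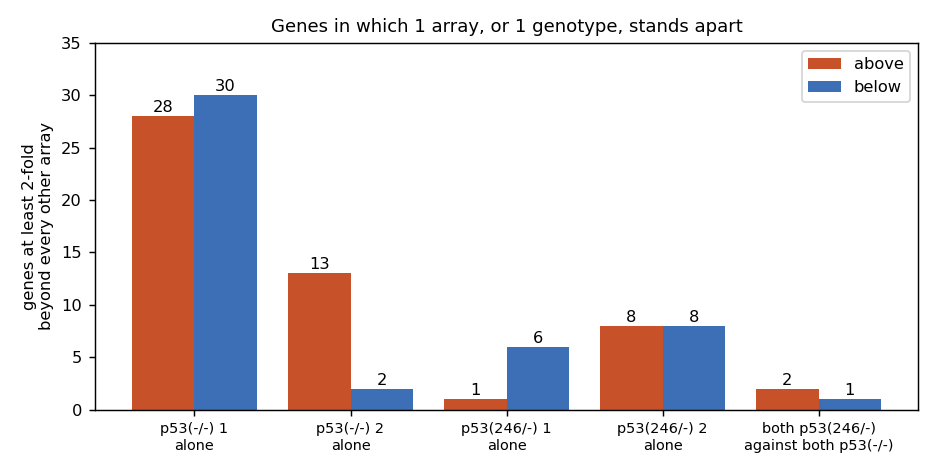
Number of genes (vertical axis), among the 6800 with means above the low-value cutoff, in which 1 array lay at least 2-fold above (orange) or below (blue) each of the other 3, and in which both p53(246/-) arrays lay at least 2-fold above or below both p53(-/-) arrays. The first p53(-/-) array stood apart in 28 and 30 genes, and the genotypes in 2 and 1. Counts of single arrays and of genotypes are not on equal terms.

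Single arrays stood apart more often than genotypes did. The 2 kinds of count are not on equal terms, so their order carries no weight. Any of the 4 arrays can stand apart from the next value, while the genotypes allow only 1 fixed split. Among the 6800 genes above the cutoff, the first p53(-/-) array lay at least 2-fold above every other array in 28 genes and below in 30. The corresponding counts were 13 and 2 for the second p53(-/-) array, 1 and 6 for the first p53(246/-) array, and 8 and 8 for the second. Both p53(246/-) arrays lay at least 2-fold above both p53(-/-) arrays in 2 genes, Mrpl48 and Plxdc2, and below them in 1 gene, Pla2g4a. None of these 3 genes passed the adjusted test.

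Plxdc2, which encodes a transmembrane protein with a plexin domain, read 4.91 and 4.77 in p53(-/-) cells and 6.06 and 7.15 in p53(246/-) cells. Both p53(-/-) arrays were under the cutoff and both p53(246/-) arrays over it. The difference was 1.77 on the log2 scale (SE 0.32, 95% interval 1.09 to 2.45, 3.41-fold). It was 1.84 without the first p53(-/-) array and 1.23 without the second p53(246/-) array, and ranged from 1.23 to 2.31 as each array was left out. Mrpl48, a protein of the large subunit of the mitochondrial ribosome, read 6.70 and 7.0 against 8.46 and 8.41. The arrays of each genotype lay close together here, and the difference of 1.59 (SE 0.56, 95% interval 0.40 to 2.78, 3.0-fold) ranged from 1.44 to 1.74 as each array was left out. Its SE draws also on the lymphomas, whose standard deviations were 0.80 for p53(-/-) and 0.60 for p53(246/-). In normal cells these were 0.21 and 0.04. Pla2g4a, the cytosolic phospholipase that frees arachidonic acid from membranes, read 8.88 and 7.15 in p53(-/-) cells and 5.24 and 6.01 in p53(246/-) cells. Its difference was -2.39 (SE 0.71, 95% interval -3.88 to -0.90, 5.24-fold), and -1.53 without the first p53(-/-) array.

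Between the genotypes, 2676 genes (18%) had both p53(246/-) arrays above both p53(-/-) arrays and 1740 (11.7%) had both below. Among the genes with means above the cutoff these were 1331 (19.6%) and 719 (10.6%). With a difference of at least 2-fold as well there were 16 (0.108%) and 50 (0.336%), and above the cutoff 9 (0.132%) and 10 (0.147%).

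**Figure D2:**
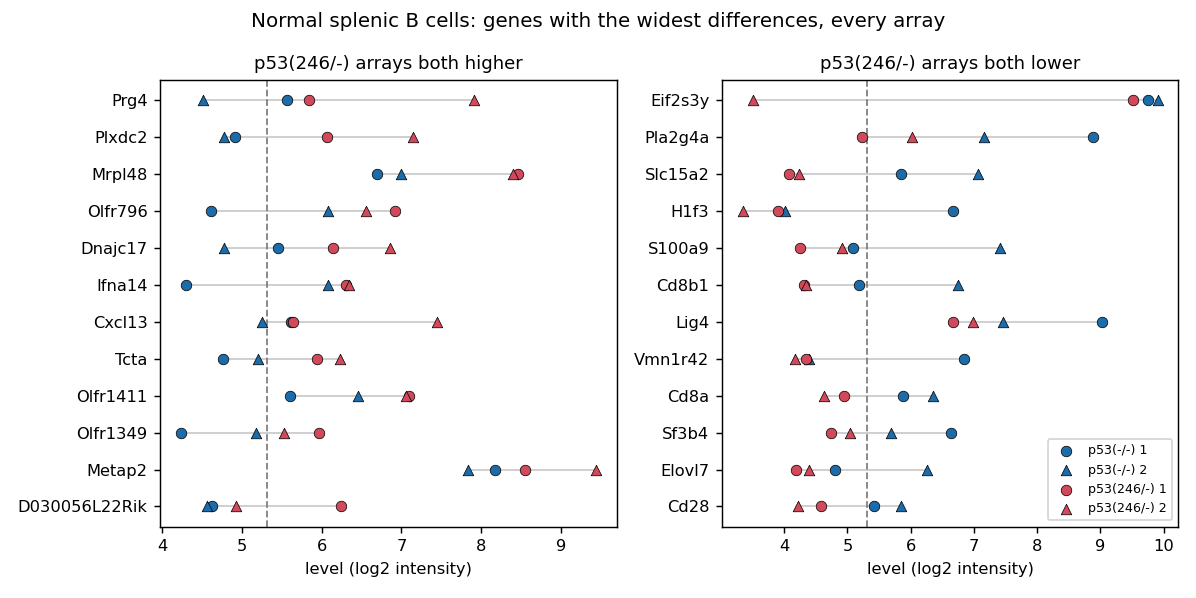
Log2 intensity (horizontal axis) on each of the 4 arrays for the 12 genes in each direction with the widest differences among genes whose genotypes do not overlap and whose higher genotype mean is above the low-value cutoff. Blue marks p53(-/-) and red p53(246/-), circles the first and triangles the second array, and the dashed line is that cutoff of 5.31. Single arrays stand far out in Eif2s3y (3.51 on the second p53(246/-) array) and Prg4 (7.91 on the same array).

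Among genes whose higher mean was above the cutoff, the others with the smallest p-values and higher levels in p53(246/-) cells had differences between 1.40-fold and 3.57-fold. Prg4, which encodes the secreted lubricant lubricin, read 5.56 and 4.50 against 5.84 and 7.91 (difference 1.84, SE 0.44). The second p53(246/-) array was far above the rest, and the difference was 0.80 without it. Tcta, named for a translocation in T cell leukaemia, read 4.76 and 5.20 against 5.93 and 6.22 (difference 1.10, SE 0.25). Rap1a, a small GTPase of integrin-mediated adhesion, read 6.93 and 7.86 against 8.30 and 8.27 (difference 0.89, SE 0.25). In Rap1a the first p53(-/-) array was low and the other 3 lay within a narrow range, and the difference without that array was 0.42. Skp1, a subunit of SCF ubiquitin ligases, read 7.2 and 7.54 against 7.96 and 8.40. Esd, esterase D, read 7.93 and 8.31 against 8.95 and 9.05. Both genes were expressed well above background on every array with no overlap between genotypes, and their differences were 0.81 (SE 0.24) and 0.88 (SE 0.26).

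Further members of this group were Ndufs6, a subunit of respiratory complex I (difference 0.92, SE 0.30), Rrs1, which acts in ribosome assembly (0.70, SE 0.22), Peli3, a ubiquitin ligase of Toll-like receptor signalling (0.48, SE 0.16), Pigz, a mannosyltransferase of the GPI anchor pathway (0.58, SE 0.15), and the transcripts 2810025M15Rik (0.66) and Cep83os (0.85). Rrs1 read 6.29 and 7.14 against 7.58 and 7.25, and without the first p53(-/-) array its difference was 0.28 and that of Peli3 0.31. Ndufs6 was at 0.52 without the second p53(246/-) array. Of the 12 higher genes with the smallest p-values, Plxdc2 included, 9 had the first p53(-/-) array as the lowest of the 4, and 6 had a p53(-/-) mean under the cutoff.

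Lower levels in p53(246/-) cells were found for Slc15a2, a transporter of small peptides, which read 5.84 and 7.07 in p53(-/-) cells and 4.08 and 4.23 in p53(246/-) cells. Both p53(246/-) arrays were near background. The difference was -2.30 (SE 0.76, 95% interval -3.90 to -0.69, 4.92-fold). Elovl7, an elongase of long-chain fatty acids, read 4.80 and 6.26 against 4.18 and 4.40, so that a single array exceeded the cutoff. Plpp6, a phosphatase of isoprenoid diphosphates, read 6.08 and 5.34 against 4.90 and 4.55 (difference -0.98, SE 0.27). Enkur, a protein of cilia and sperm flagella, read 5.80 and 5.51 against 4.91 and 4.76 (difference -0.82, SE 0.20). Ppargc1a, a coactivator of mitochondrial biogenesis, read 6.45 and 6.0 against 5.71 and 5.68, and Rdh10, a retinol dehydrogenase, 6.95 and 6.61 against 5.99 and 6.46.

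The first p53(-/-) array alone carried several of the lower genes. The linker histone gene H1f3 read 6.67 on that array and 4.00, 3.89 and 3.34 on the others, the defensin gene Defb9 6.38 against 4.61, 4.30 and 4.42, and the thiopurine methyltransferase Tpmt 5.90 against 4.74, 4.48 and 4.36. Unkl read 6.09 and 5.29 against 4.90 and 4.76. Histone and defensin genes have close relatives, whose signal the array may not keep apart. In 9 of the 12 lower genes with the smallest p-values, again among genes whose higher mean was above the cutoff, the first p53(-/-) array was the highest of the 4, and in 8 the p53(246/-) mean was under the cutoff.

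Ranking separated genes by size instead of by p, with the same limit on level, added 17 more genes. On the higher side these were Dnajc17, a co-chaperone (difference 1.38), Metap2, a methionine aminopeptidase (0.99), the B cell chemokine gene Cxcl13 (1.12), Ifna14 of the type I interferons (1.14), the olfactory receptors Olfr796 (1.39), Olfr1411 (1.05) and Olfr1349 (1.04), D030056L22Rik (0.99) and Mrpl48 above. Cxcl13, made mainly by follicular stroma, read 5.61 and 5.24 against 5.64 and 7.45, so the second p53(246/-) array alone was high. Metap2 read 8.18 and 7.83 against 8.55 and 9.44. Without the first p53(-/-) array the differences were 0.24 for Ifna14, 0.65 for Olfr796, 0.62 for Olfr1411 and 0.57 for Olfr1349, and without the first p53(246/-) array that of D030056L22Rik was 0.33. Olfactory receptor genes belong to the set that defines the background here, and Ifna14 has close relatives.

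On the lower side they were Eif2s3y and the neutrophil and T cell genes given below, together with Lig4, Sf3b4 and the vomeronasal receptor Vmn1r42 (difference -1.36). Vmn1r42 read 6.85 and 4.38 against 4.35 and 4.16, and its difference was -0.13 without the first p53(-/-) array. Lig4, the ligase of non-homologous end joining that also seals V(D)J breaks, read 9.02 and 7.46 against 6.67 and 6.98 (difference -1.41, SE 0.73, 95% interval -2.96 to 0.13). The first p53(-/-) array was high, and the difference was -0.63 without it. Sf3b4, a splicing factor of the U2 particle, read 6.64 and 5.69 against 4.74 and 5.04 (difference -1.27, SE 0.43).

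None of the p53 target genes passed the adjusted test. Of 40 listed targets 35 were measured, with 17 higher and 18 lower in p53(246/-) cells and a median difference of -0.01, beside 0.01 over all genes. At an unadjusted limma p under 0.05 there was 1 gene higher, against 1.21% of all genes, and 0 lower. Groups did not overlap in 9 targets with p53(246/-) higher and in 2 with it lower, 25.7% and 5.71% of the list beside 18% and 11.7% of all genes. Every difference in the list lay between -0.30 and 0.43.

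Cdkn1a, the cyclin-dependent kinase inhibitor of p53-dependent arrest, read 4.66 and 4.33 against 4.55 and 4.42. All 4 arrays were under the cutoff, so little can be read from it. Mdm2, the ubiquitin ligase that degrades p53, read 8.70 and 8.96 against 9.02 and 9.01 (difference 0.19, 95% interval -0.49 to 0.87). Ccng1 read 10.49 and 10.44 against 10.55 and 10.60 (difference 0.11, 95% interval -0.28 to 0.49). Both of these well-expressed targets were slightly higher on each p53(246/-) array, by less than their intervals. Trp53inp1, a p53-induced gene of autophagy and cell death, was at 0.22 (SE 0.40).

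Aen, an apoptosis-enhancing nuclease, was the target with the smallest p and read 4.99 and 5.27 against 5.53 and 5.60 (difference 0.43, SE 0.19, 95% interval 0.04 to 0.82). Its 4 arrays lie around the cutoff. The pro-apoptotic gene Bbc3 was at -0.03 (SE 0.20), Phlda3, an inhibitor of Akt signalling, at -0.04 (SE 0.17), the RNA-binding protein Zmat3 at -0.30 (SE 0.19) and the stress gene Sesn2 at 0.18 (SE 0.14). Of these 4 genes only Phlda3 had values above the cutoff on all 4 arrays. Trp53 itself, Bax and Xist were not analysed here, so the genotype could not be checked on the altered gene.

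**Figure D3:**
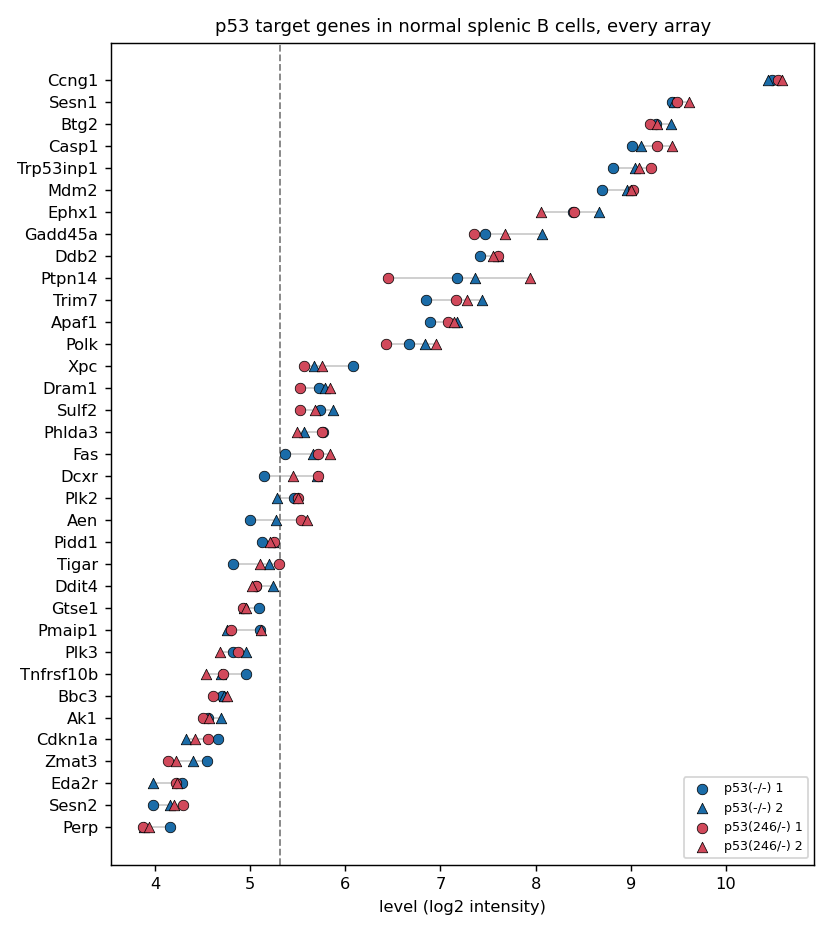
Log2 intensity (horizontal axis) of 35 p53 target genes on each of the 4 arrays, ordered by mean level. Blue marks p53(-/-) and red p53(246/-), circles the first and triangles the second array, and the dashed line is the low-value cutoff. Red and blue symbols are interleaved along the list, and no difference exceeds 0.43.

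Genes next to Trp53 on chromosome 11 were examined because alleles that lie near a targeted locus travel with it. Of the 50 measured neighbours, 25 on each side, 21 were higher and 29 lower (median difference -0.04). Naa38, a subunit of an N-terminal acetyltransferase, read 6.32 and 7.22 against 7.25 and 7.75 (difference 0.73, SE 0.26). Tmem107, a protein of the ciliary transition zone, read 5.30 and 4.31 against 4.08 and 4.14 (difference -0.69, SE 0.26). In both genes the first p53(-/-) array stood off from the other 3. Ctdnep1 (0.58), Phf23 (-0.60) and Odf4 (-0.33) had the next smallest p-values.

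B cell genes were high on every array. Ms4a1 (CD20) read 11.70 and 11.75 against 11.87 and 11.78, Cd79b of the B cell receptor 12.08 and 12.11 against 12.06 and 11.94, Pax5 10.50 and 10.55 against 10.40 and 10.17, and Ebf1 10.15 and 10.22 against 10.07 and 9.86. All 19 measured genes of mature B cell identity were above the cutoff on every array, with differences between -0.31 and 0.12. Groups did not overlap in 6 of the 19 with p53(246/-) lower and in 1 with it higher, 31.6% and 5.26% of the list beside 11.7% and 18% of all genes, and the second p53(246/-) array was the lowest in 9. Cd79a, the partner of Cd79b, read 7.96 and 8.80 against 8.82 and 7.86, a split by array and not by genotype.

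Among the 15 measured marginal zone genes 2 had an unadjusted limma p under 0.05, both lower in p53(246/-) cells, beside 2.19% of all genes. S1pr3, a sphingosine 1-phosphate receptor of marginal zone B cells, read 6.32 and 6.48 in p53(-/-) cells and 5.82 and 5.79 in p53(246/-) cells (difference -0.60, SE 0.20, 95% interval -1.02 to -0.17). The 2 arrays of each genotype lay within 0.16 of each other. Tlr3, the receptor for double-stranded RNA, read 7.22 and 6.73 against 6.59 and 6.48 (difference -0.44, SE 0.19), and its difference was -0.20 without the first p53(-/-) array. The list was balanced, with 7 higher and 8 lower and a median of -0.01. Its differences ran from -0.60 to 0.79, so the widest was a higher one. Groups did not overlap in 2 members with p53(246/-) higher and in 3 with it lower, 13.3% and 20% of the list beside 18% and 11.7% of all genes.

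Of the 22 measured genes of B cell activation, 3 were lower on both p53(246/-) arrays than on either p53(-/-) array and 3 were higher, 13.6% each, beside 11.7% and 18% of all genes. Myc read 8.95 and 8.33 against 7.94 and 7.91 (difference -0.71, SE 0.24, 95% interval -1.22 to -0.20), and the difference was -0.40 without the first p53(-/-) array. Egr2, a zinc finger factor induced by the antigen receptor, read 6.6 and 6.61 against 6.19 and 5.93 (difference -0.55, SE 0.18). Nr4a1, an orphan nuclear receptor induced by the same signal, read 5.46 and 5.52 against 5.04 and 4.89 (difference -0.53, SE 0.19). For Egr2 and Nr4a1 the p53(-/-) arrays agreed closely with each other, and the differences kept between -0.68 and -0.42 and between -0.60 and -0.45 as each array was left out. The list as a whole had 14 higher and 8 lower, with a median of 0.02.

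Immediate early genes, which cells switch on within minutes of a stimulus, were lower in 21 of 22 and higher in 1, with a median difference of -0.28. Their mean level was 6.61 and 6.20 in p53(-/-) cells and 6.19 and 6.04 in p53(246/-) cells. The first p53(-/-) array was the highest in 16 of the 22, and without it the median was -0.11 with 15 lower and 7 higher. Without the second p53(-/-) array the median was -0.56. Atf3, a stress-induced transcription factor, read 7.22 and 6.17 against 5.87 and 5.86 (difference -0.83, SE 0.36) and was the single member with an unadjusted p under 0.05, beside 2.19% of all genes. Without the first p53(-/-) array it was at -0.31. Klf2, which keeps lymphocytes quiescent, read 7.06 and 6.42 against 6.31 and 6.33, and Egr1 read 6.98 and 6.43 against 6.44 and 6.20. In all 3 genes the second p53(-/-) array lay nearer to the p53(246/-) arrays than to its own partner. Groups did not overlap in 8 members with p53(246/-) lower, 36.4% of the list beside 11.7% of all genes, and in 0 with it higher.

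Genes of mitosis leaned the other way. Of 23 measured members 17 were higher and 6 lower in p53(246/-) cells, with a median of 0.17 that ranged from 0.14 to 0.18 as each array was left out, beside a median of 0.06 over the genes above the cutoff. Their mean level was 5.94 and 5.70 in p53(-/-) cells and 5.92 and 5.94 in p53(246/-) cells, so only the second p53(-/-) array was lower. Groups did not overlap in 9 members with p53(246/-) higher, 39.1% of the list beside 18% of all genes, and in 1 with it lower. The differences ran from -0.64 to 0.55, so the widest was a lower one, while the members given next were all higher. Mki67, the Ki-67 antigen of dividing cells, read 8.39 and 8.38 against 8.57 and 8.73 (difference 0.27, SE 0.17, 95% interval -0.10 to 0.63). Top2a, topoisomerase II of replicating chromosomes, read 7.99 and 7.65 against 8.07 and 8.07. Birc5 (survivin), of the chromosomal passenger complex, read 4.92 and 5.21 against 5.58 and 5.66 (difference 0.55), Ccna2 (cyclin A2) 6.27 and 5.93 against 6.26 and 6.73 (difference 0.39), and the spindle checkpoint kinase Bub1 5.06 and 4.71 against 5.30 and 5.11. Bub1 was under the cutoff on all 4 arrays and Birc5 on both p53(-/-) arrays, and 15 of the 23 members had means above it. Without the second p53(-/-) array the difference was 0.08 for Top2a, 0.15 for Bub1, 0.22 for Ccna2, 0.26 for Mki67 and 0.69 for Birc5. The second p53(-/-) array was the lowest of the 4 in 14 of the 23 genes and the highest in 0. The first p53(-/-) array was the highest in 8, as was the second p53(246/-) array. None of the 23 genes passed the adjusted test.

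**Figure D4:**
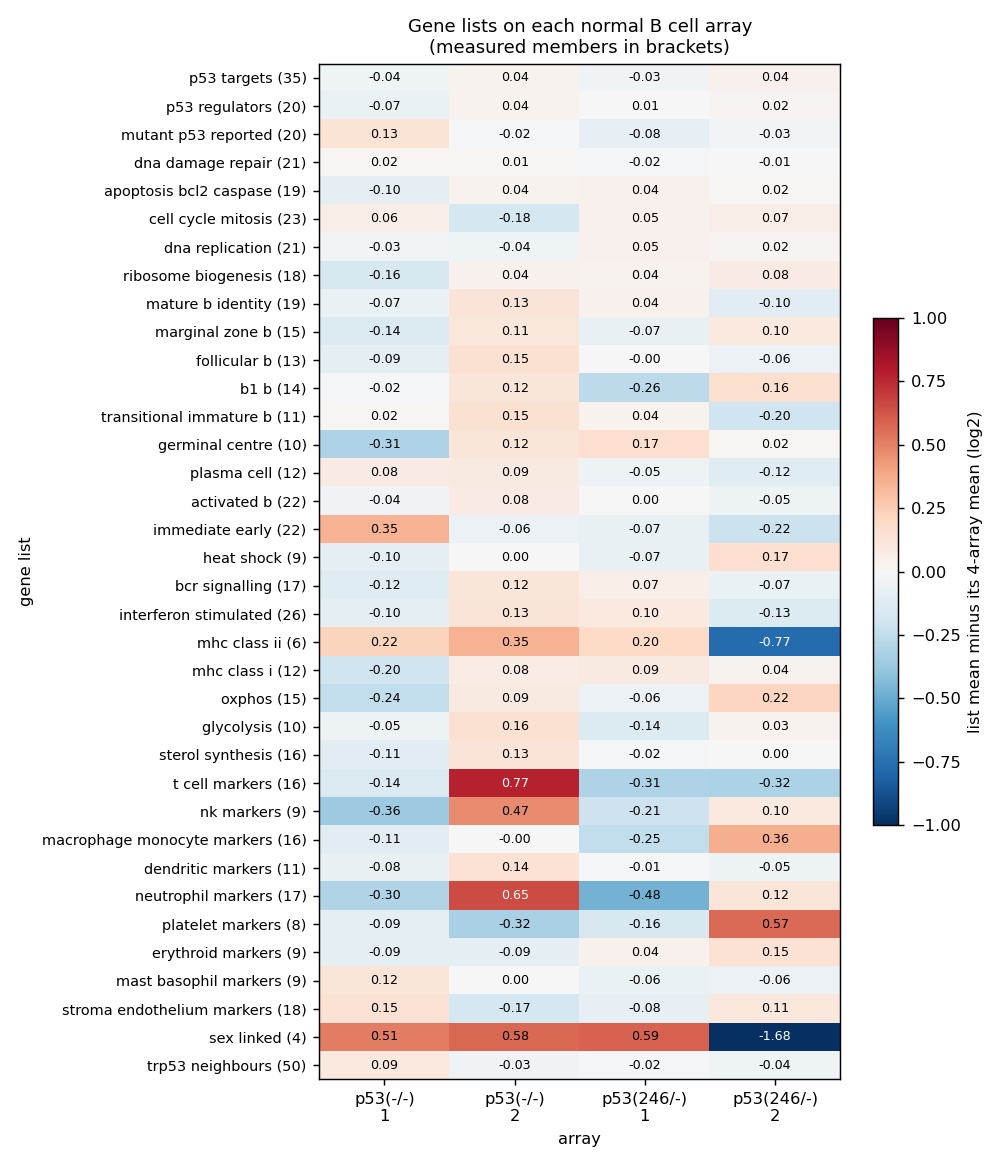
Mean log2 level of each gene list on each array, minus the mean of the 4 arrays (colour and printed value, red for higher and blue for lower), with the number of measured members in brackets. T cell markers are high on the second p53(-/-) array (0.77), platelet markers on the second p53(246/-) array (0.57) and immediate early genes on the first p53(-/-) array (0.35). The mean of the sex-linked genes is low on the second p53(246/-) array (6.44 against 8.63 to 8.71 on the others). That array is the lowest in 2 of these 4 genes and the highest in 2. The mean of the MHC class II genes is low on that array too (9.36 against 10.3 to 10.5). Of these genes H2-Ea reads 5.06 there against 11.89 to 11.91, while that array is the highest in 3 of the 6. Neutrophil markers are highest on the second p53(-/-) array (6.02 against 4.89 to 5.49). Each of these shifts is widest on a single array.

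Markers of other spleen cells differed between single arrays. T cell markers had a mean level of 5.20 and 6.12 in p53(-/-) cells and 5.04 and 5.03 in p53(246/-) cells, and of the 16 measured 4, 11, 2 and 2 were above the cutoff on the 4 arrays in that order. Of these markers 14 were lower and 2 higher in p53(246/-) cells, with a median of -0.48, and of -0.07 without the second p53(-/-) array. At an unadjusted limma p under 0.05 there were 3 lower and 1 higher, beside 2.19% and 1.21% of all genes. The differences ran from -1.64 to 0.39, and the markers named next were all among the lower ones. Cd3e and Cd3g, defining chains of the T cell receptor complex picked here after their values were seen, read 4.83 and 7.28 against 5.15 and 5.16, and 3.46 and 7.39 against 3.87 and 3.87. Cd8a read 5.87 and 6.35 against 4.94 and 4.62, Cd8b1 5.19 and 6.75 against 4.31 and 4.35, and the costimulatory receptor Cd28 5.41 and 5.85 against 4.59 and 4.22. The CD3 chains were thus high on a single array, while Cd8a and Cd28 were over the cutoff on both p53(-/-) arrays. In such bulk RNA, fewer cells of a type and less RNA per cell cannot be told apart.

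Neutrophil markers had mean levels of 5.07 and 6.02 against 4.89 and 5.49, with 4, 9, 4 and 6 of 17 above the cutoff. S100a9, a calcium-binding protein abundant in neutrophils, read 5.09 and 7.41 against 4.25 and 4.91 (difference -1.67, SE 0.60), with a high value on the second p53(-/-) array alone. Retnlg, a resistin-like protein of neutrophils, read 5.22 and 9.79 against 5.72 and 8.64, high on the second array of each genotype. The eosinophil chemokine receptor Ccr3 followed the same split, at 4.30 and 8.01 against 3.91 and 7.70, and P2ry14, a receptor for UDP-glucose, did so more weakly at 5.25 and 8.02 against 5.54 and 6.42.

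Platelet markers were higher in p53(246/-) cells in 8 of 8, with a median of 0.37. The second p53(246/-) array was the highest in 7 of the 8, and the median was 0.08 without it. Ppbp, a platelet chemokine, read 10.47 and 9.35 against 9.84 and 11.14. Pf4, platelet factor 4, read 5.88 and 4.89 against 5.05 and 7.59, and the platelet receptor Clec1b read 5.28 and 5.43 against 5.49 and 6.42 (difference 0.60). Macrophage markers were also highest on that array, in 11 of 16. How far these cells bear on Prg4, Cxcl13 or the genes of the lower group was not tested.

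Some of the widest gaps in the data lay between the 2 arrays of 1 genotype. The MHC class II gene H2-Ea read 11.89 and 11.89 in p53(-/-) cells and 11.91 and 5.06 in p53(246/-) cells, so that 3 arrays were near the top of the scale and the second p53(246/-) array was near background. Other class II genes were high on all 4 arrays: H2-Aa read 11.68 and 11.77 against 11.79 and 11.95, H2-Ab1 11.01 and 11.36 against 11.21 and 11.57, and the invariant chain Cd74 11.48 and 11.52 against 11.36 and 11.21. Some inbred mouse strains, C57BL/6 among them, do not express H2-Ea, and the labels do not give the haplotype of these hybrid mice. In the lymphomas H2-Ea lay between 9.86 and 11.16 on all 6 p53(-/-) arrays, and on the p53(246/-) arrays at 3.76, 3.80, 4.13, 8.03, 10.29 and 11.18.

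Ctse (cathepsin E, an aspartic protease of antigen-presenting cells) read 10.49 and 10.94 against 11.48 and 7.11, and the interferon-inducible Trim30b 9.41 and 9.52 against 9.71 and 6.39. Both were low on the same array as H2-Ea. The Y-linked gene Kdm5d read 8.24 and 8.22 against 8.28 and 4.12. Apobec3, a cytidine deaminase that restricts retroviruses, was high on that array at 9.34 and read 5.72, 6.27 and 6.11 on the others (picked after its values were seen). In lymphomas H2-Ea differed by -3.56 (SE 1.29, adjusted p = 0.994, limma). Without the second p53(246/-) array, H2-Ea, Ctse, Kdm5d and Trim30b changed sign, to between 0.02 and 0.76, and Apobec3 went from 1.73 to 0.12. Selenok (4.76 and 8.08 against 6.5 and 7.26), the chemokine gene Ccl5 (4.73 and 7.80 against 6.08 and 7.43) and the histone mRNA-binding protein gene Slbp (8.56 and 5.72 against 6.76 and 5.67) had their widest gap between the p53(-/-) arrays.

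Rgs13, a regulator of G protein signalling in germinal centre B cells, read 6.05 and 7.74 against 7.85 and 7.87, where the first p53(-/-) array alone was low. Fdps, the farnesyl diphosphate synthase of sterol synthesis, read 6.01 and 4.20 against 3.57 and 3.35 (difference -1.64, SE 0.42), where that array alone exceeded the cutoff. Without it the difference was -0.74. The mean of Fdps was under the cutoff in both genotypes, which kept it from the ranked genes. Its p was smaller than those of 11 of the 12 lower ones, and its lymphoma difference was 0.34. Fdps belongs to a list of genes reported for mutant p53, of which 20 were measured, 9 higher and 11 lower (median -0.05). The differences in this list ran from -1.64 to 0.71. At an unadjusted limma p under 0.05 there were 2 higher members and 1 lower, Fdps, beside 1.21% and 2.19% of all genes. Groups did not overlap in 3 members with p53(246/-) higher and 5 with it lower, 15% and 25% beside 18% and 11.7%.

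**Figure D5:**
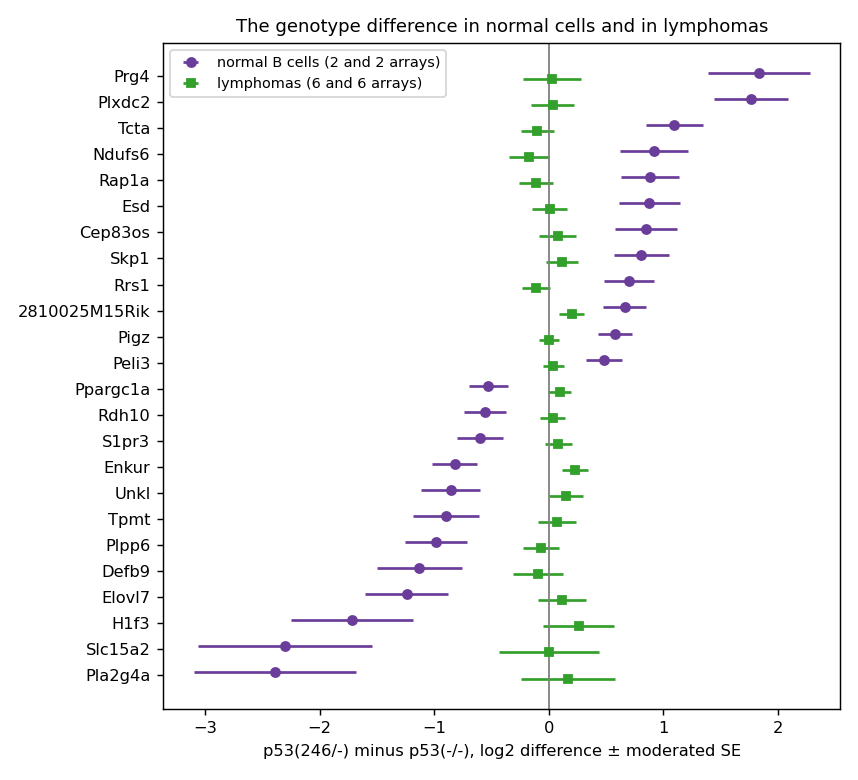
Difference between p53(246/-) and p53(-/-) (log2, horizontal axis, bars 1 moderated standard error) in normal B cells (purple circles, 2 arrays of each genotype) and in lymphomas (green squares, 6 of each), for the 12 genes in each direction with the smallest p-values in normal cells among genes whose higher genotype mean there is above the low-value cutoff. In normal cells the differences run from -2.39 to 1.84, and in lymphomas from -0.17 to 0.26.

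The 24 genes ranked by p-value in normal cells, all with a higher mean above the cutoff, were set beside the same contrast in lymphomas, which uses no array in common. Their lymphoma differences lay between -0.17 and 0.26, with the same direction as in normal cells in 10 of 24 and an unadjusted limma p under 0.05 in 0, against 445 of all genes (2.99%). For Plxdc2 the lymphoma difference was 0.03 (SE 0.19), for Mrpl48 0.26 (SE 0.33) and for Pla2g4a 0.17 (SE 0.41). The test of the difference between the 2 contrasts, the interaction of genotype and cell type in limma, gave 0 of 14860 genes (0%) at an adjusted p under 0.05 and 540 (3.63%) at an unadjusted p under 0.05. The interaction of Plxdc2 was 1.73 on the log2 scale (SE 0.37), with an adjusted p = 0.997 in limma. These genes were picked for small p-values in normal cells, so no weight can be put on the smaller size of their lymphoma differences. Over all genes the genotype differences of normal cells and lymphomas had a Pearson correlation of -0.06 and a Spearman correlation of -0.11, and of 0.02 and -0.02 over the 6800 genes above the cutoff, across genes, which are not independent replicates.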

How the data were processed

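RNA of 16 mouse samples was measured on exon arrays, 1 array a sample. The deposited values, between 2.508 and 13.5 for 23332 transcript clusters, were read as log2 intensities; the log base, summary method and normalization are not given in the sources used here. Partek 6.5 and build mm8 are named in the submitters' processing notes. Of the clusters, 14996 carry 1 gene symbol, 1019 several and 7317 none; the brightest cluster of each of 14860 genes was kept, and 14941 clusters matched the GRCm38.p6 table, used only for names and gene order. Groups were taken from the sample titles. In R 4.3.3, limma 3.58.1 fitted 4 group means to all 16 arrays, since 2 arrays a side leave few degrees of freedom, with two-sided moderated tests, Benjamini-Hochberg adjustment and a threshold of 0.05. The pipeline was tested on simulated data.

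The comparison and its gene lists were chosen with earlier results of these data known, and list counts carry no test. Genes were named by rule: among genes whose higher group mean was above the low-value cutoff, the 12 smallest p-values and the 12 widest separated differences in each direction; among genes whose mean over the 4 normal arrays was above it, the 6 widest gaps within each genotype; and the members of each list with the smallest p-values, set p53 and B cell genes, and the 5 neighbours of Trp53 with the smallest p-values. The number of arrays limits the precision. Same-numbered arrays were checked for pairing: the correlation of their deviations was 0.066 over all genes, and only the number is shared. Alternatives covered normalization, array weights, array spread, low values, transcript clusters, moderation, sex chromosomes, a replicate block and leaving out arrays.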

Additional observations from a re-analysis of the deposited data

Results flagged for a closer look

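Ctse, low on the second p53(246/-) normal array, also had 1 lymphoma of each genotype far below the other 5. The p53(-/-) lymphoma read 7.66 and the p53(246/-) lymphoma 8.32, while the remaining arrays of each group lay between 10.33 and 10.93. This p53(246/-) lymphoma was the sixth, whose array had the narrowest distribution of the 16 (standard deviation over genes 1.56). Its median of the receptor genes, 4.43, was the highest. How far this bears on Ctse was not tested. The gap below the next array took a share of 0.826 and 0.806 of the group's range, above Dixon's 95% critical value for 6 samples. Chance alone gives such a gap in about 1 in 20 groups.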

How the results depend on the processing

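The count of genes passing the adjusted threshold in normal cells was 0 in the reported fit and in every alternative except 2 that leave out an array. It was 532 without the second p53(-/-) array, when the first stands alone for its genotype (35 higher, 497 lower), and 4 without the first p53(246/-) array (Prg4, Plxdc2 and Baiap2l1 higher, Trim30b lower), so the range over left-out arrays was 0 to 532. For the interaction it was 0 to 473, with 2 genes without the first p53(246/-) array. In these fits the lone array is assumed to vary like the other groups. Unadjusted counts (higher and lower) were 180 and 325 as reported, 482 and 516 after quantile normalization, 675 and 524 with array spread as a covariate, 162 and 113 with the normal arrays alone, 82 and 107 without the first p53(-/-) array, and 72 and 49 of 6800 with low values left out. A replicate block gave 0 genes in normal cells (199 and 369 unadjusted) and 0 for the interaction; it changed no call, as did a crossed block, chosen with the leave-out of both narrow arrays after seeing the data.

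Of 93 named genes 75 kept their direction whichever array was left out. The others ranged as follows: Bbc3 -0.0997 to 0.0429, Ccl5 -1.05 to 2.02, Ccr3 -2.24 to 1.54, Cd3e -2.13 to 0.33, Cd3g -3.52 to 0.41, Cd79a -0.52 to 0.43, Cdkn1a -0.17 to 0.16, Ctse -3.61 to 0.76, H2-Ea -6.83 to 0.021, Kdm5d -4.11 to 0.0471, P2ry14 -2.04 to 0.73, Pf4 -0.34 to 2.21, Phlda3 -0.18 to 0.0913, Ppbp -0.0686 to 1.22, Retnlg -2.61 to 1.96, Selenok -1.19 to 2.12, Slbp -2.34 to 0.49 and Trim30b -3.08 to 0.25. Without both narrow arrays (the first p53(-/-) array and the sixth p53(246/-) lymphoma) Selenok was at -1.19, Ccl5 at -1.05, Slbp at 0.49, Cdkn1a at 0.16 and Phlda3 at 0.0577. Quantile normalization put Cdkn1a at 0.0446 and Bbc3 at 0.0197, centred arrays Cdkn1a at 0.0183, and array spread Cdkn1a at 0.0608, Phlda3 at 0.0054, Ms4a1 at -0.089 and H2-Aa at -0.0643. The median of the p53 targets lay between -0.018 and 0.0763, and that of the mitosis genes between 0.1014 and 0.2077, over all settings. The cause of these moves was not tested beyond the arrays left out. Signal near background limits 8060 of the 14860 genes.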
